A study of Mus musculus with 16 samples.

Results

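The 8 mouse genes described here, Cfl2, Abat, Gamt, Slc35f6, Necap1, Ank2, Impact and Aldh6a1, were among the genes with less mRNA in spermatogonial stem cell cultures after Bcl6b siRNA than after control siRNA. They are 8 of 18193 genes on the array. They were chosen from the difference between Bcl6b knockdown and control arrays, so that difference is given below as a description without a test. Spermatogonial stem cells renew themselves in the testis and give rise to sperm. The cultures were set up from Thy1+ germ cells of C57BL\6 background and kept in serum-free medium with 20 ng/ml GDNF, 150 ng/ml GFRA1 and 1 ng/ml FGF2. All 4 groups received siRNA for 30 h: against Bcl6b, against Etv5, against Pou3f1, or a negative control. Each group had 4 Affymetrix Mouse 430 2.0 arrays, 16 in all. The labels do not say whether the 4 arrays of a group came from separate cultures, so their spread may be technical.

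Bcl6b, Etv5 and Pou3f1 encode transcription factors whose mRNAs rise with GDNF signalling in these cells, and Bcl6b is a BTB zinc-finger protein related to the repressor BCL6. The 8 genes belong to several pathways. Cofilin 2 (Cfl2) severs and depolymerises actin filaments, and ankyrin-B (Ank2) anchors membrane proteins to the spectrin skeleton under the membrane. Guanidinoacetate N-methyltransferase (Gamt) carries out the last step of creatine synthesis, 4-aminobutyrate aminotransferase (Abat) breaks down GABA, and methylmalonate semialdehyde dehydrogenase (Aldh6a1) acts late in the breakdown of valine and thymine in mitochondria. Necap1 is an accessory protein of clathrin coats that binds the AP-2 adaptor. Impact binds GCN1 and thereby restrains GCN2, the kinase that phosphorylates eIF2 when amino acids run short, and the mouse gene is imprinted. Slc35f6 belongs to the SLC35 family, named after its nucleotide-sugar transporters.

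RefSeq start-site windows (build GRCm38.p6, 250 bases before to 50 bases after the start) were at hand for 6 of the 8 genes, with 10 windows between them. The window before the start of Cfl2 and of Aldh6a1 is shown because both genes were low in Bcl6b knockdown and their start regions differ in base composition. A shorter stretch of Slc35f6, ending 8 bases after its start, is shown because it holds the ETS core, the motif letters bound by the family of Etv5. Capitals mark the CCAAT box (CCAAT), the GC box (GGGCGG) and the ETS core (CCGGAAG) on either strand where the whole motif lies in the stretch shown, and each sequence runs in the direction of its gene.
Cfl2, chr12:54862878-54863127, minus strand: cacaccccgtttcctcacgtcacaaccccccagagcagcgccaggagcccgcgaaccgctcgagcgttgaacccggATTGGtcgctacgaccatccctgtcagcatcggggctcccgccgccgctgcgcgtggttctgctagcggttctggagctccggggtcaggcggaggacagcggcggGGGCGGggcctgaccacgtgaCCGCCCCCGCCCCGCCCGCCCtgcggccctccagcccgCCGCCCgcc
Aldh6a1, chr12:84451025-84451274, minus strand: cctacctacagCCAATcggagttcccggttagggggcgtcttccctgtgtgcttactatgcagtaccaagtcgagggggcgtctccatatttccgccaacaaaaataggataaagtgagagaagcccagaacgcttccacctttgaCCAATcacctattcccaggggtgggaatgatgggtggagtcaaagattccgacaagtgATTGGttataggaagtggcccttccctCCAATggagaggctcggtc
Slc35f6, chr5:30647879-30647946, plus strand: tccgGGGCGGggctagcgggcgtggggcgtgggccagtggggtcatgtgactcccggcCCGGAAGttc
The Cfl2 sequence was 74.4% G and C with 32 CG dinucleotides, and the Aldh6a1 sequence was 52.4% G and C with 9. Aldh6a1 had 4 CCAAT boxes in this window, on both strands, the nearest starting 19 bases before the start site. The Cfl2 sequence held 6 GC boxes, some overlapping, and 1 CCAAT box. The ETS core of Slc35f6 started 2 bases before its start site.

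Of the 10 windows, 5 held a CCAAT box and 4 held a GC box, against 37.4% and 35.7% of all 32851 windows of this length. The ETS core was in 1 of the 10 windows and in 8.86% of all windows. The letters TTCCTAGAA, the core of the BCL6 consensus, were in 0 of the 10 windows and in 0.411% of all. The spaced form TTCNNNGAA was in 0 of the 10 and in 8.30% of all. The octamer ATGCAAAT, bound by POU factors, was in 0 of the 10 and in 1.74% of all. The BCL6 core is contained in the spaced form, and every motif was searched on both strands.

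Bcl6b mRNA itself was low in 2 of the 3 knockdowns. Its intensity was 765, 611, 718 and 791 on the Bcl6b knockdown arrays, 620.4, 618, 899 and 608 on the Etv5 knockdown arrays, and 1658, 1567, 1714 and 1421 on the Pou3f1 knockdown arrays. Control arrays read 1526, 1440.2, 1341 and 1504. The Bcl6b and Etv5 knockdown arrays overlapped in this gene, and all 8 of them lay below every Pou3f1 knockdown and control array. The comparison of Bcl6b with Etv5 knockdown below is therefore one between groups with overlapping Bcl6b mRNA.

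Replicate 1 of Bcl6b knockdown was unlike the remaining 15 arrays. Between the array's 3' and 5' control probe sets the log2 difference was 1.03 for Gapdh and 3.08 for Actb on this array, and at most −0.45 and 0.76 on any other. It correlated with the others at 0.975 on average, where each of them reached 0.996 or 0.997. Of the 8 genes, each read from its brightest probe set, 7 had their lowest reading of the whole series on this array, and Ank2 was the exception. The second bright Ank2 probe set, 1434264_at, did have its lowest reading there, at 55.7. Relative to the mean of Bcl6b knockdown replicates 2 to 4, the 8 genes lay −0.82 to 0.13 away on log2 (median −0.45), while all tested genes had a median of 0.12 and a 5th to 95th percentile range of −0.88 to 1.00. For each of the 8 genes, the difference between Bcl6b knockdown and control is given below in 2 ways. These are with all 16 arrays and with the 15 arrays that leave replicate 1 out. Other values below use all 16 arrays unless stated otherwise. The part of replicate 1 in the 16-array values beyond that was not tested.

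**Figure D1:**
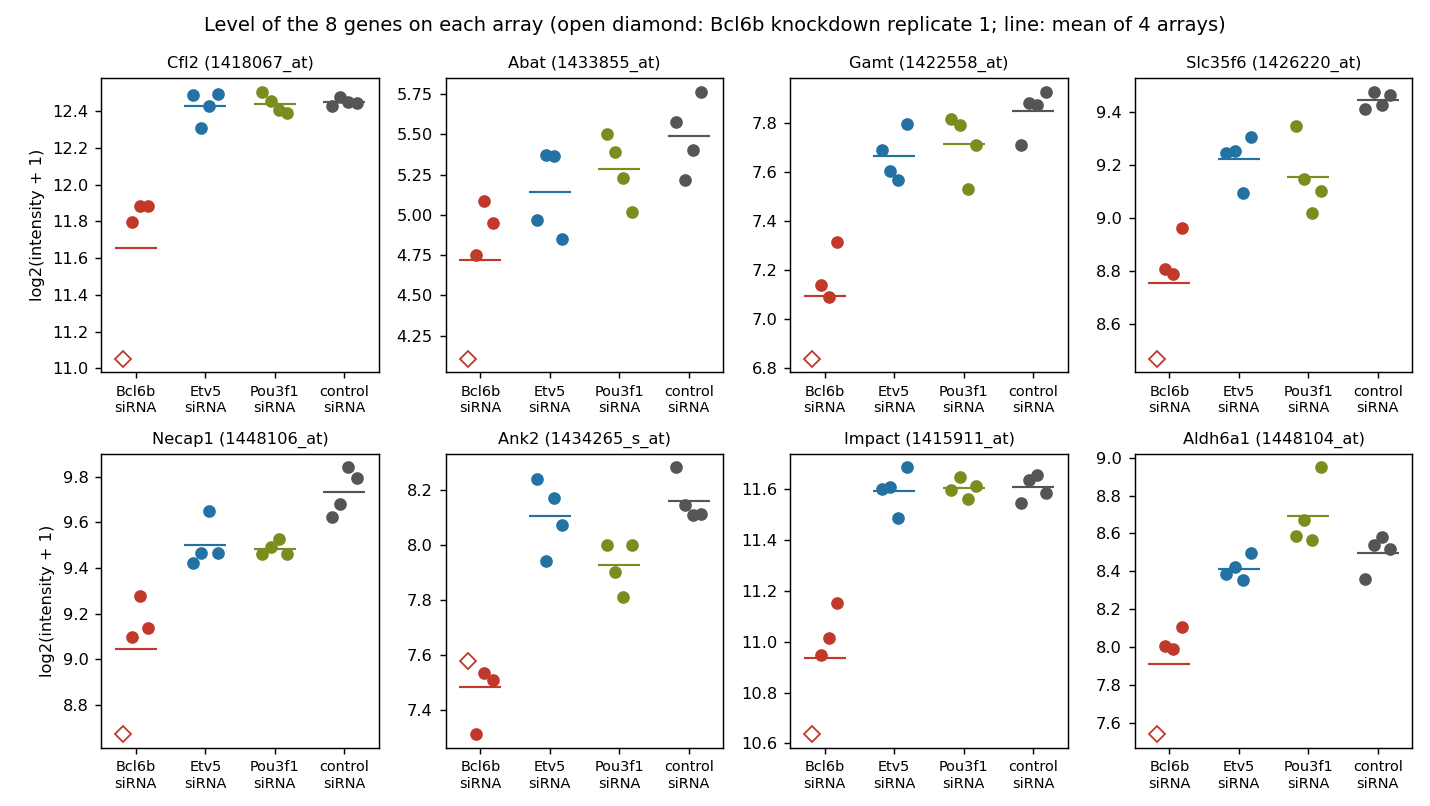
Level of each of the 8 genes on each of the 16 arrays, as log2(intensity + 1) of the gene's brightest probe set, with a line at the mean of each group of 4. The open diamond is Bcl6b knockdown replicate 1. The other Bcl6b knockdown arrays lie below all Etv5 knockdown, Pou3f1 knockdown and control arrays for every gene except Abat, where they overlap the Etv5 and Pou3f1 knockdown arrays.

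Among the genes of the cytoskeleton, Cfl2 had the highest level of the 8, at the 95.4th percentile of all genes on the array. Probe set 1418067_at read 2122, 3554, 3779.7 and 3781 on the Bcl6b knockdown arrays, 5750.0, 5072, 5518 and 5779 on the Etv5 knockdown arrays, 5819, 5616, 5441 and 5367 on the Pou3f1 knockdown arrays, and 5509.9, 5709.9, 5602 and 5584 on the control arrays. The Etv5 knockdown, Pou3f1 knockdown and control arrays occupied the same range, and the Bcl6b knockdown arrays all lay below it. The log2 difference between Bcl6b knockdown and control was −0.80 with 16 arrays and −0.60 with 15. For Etv5 knockdown minus control it was −0.02 (95% interval −0.30 to 0.26), and for Pou3f1 knockdown minus control −0.01 (−0.30 to 0.27). With 15 arrays these intervals narrowed to −0.11 to 0.06 and −0.10 to 0.07.

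The other cytoskeletal gene, Ank2, was dimmer, at the 56.9th percentile. Probe set 1434265_s_at read 190.1, 158, 185 and 181 on the Bcl6b knockdown arrays, 301, 245, 287 and 268 on the Etv5 knockdown arrays, 255, 238, 223 and 255 on the Pou3f1 knockdown arrays, and 310.4, 282, 275 and 276 on the control arrays. Every Bcl6b knockdown array was below every other array. By this probe set, Ank2 was the only one of the 8 genes with as large a log2 difference from control without replicate 1. It was −0.71 without that array and −0.68 with it. The second bright Ank2 probe set, given below, was further below control with replicate 1 than without it. On 1434265_s_at, but not on that second probe set, all 4 Pou3f1 knockdown arrays also lay below all control arrays. The log2 difference was −0.23, with limma adjusted p = 0.196 with 16 arrays. With 15 arrays the same difference passed the threshold, with limma adjusted p = 0.0497. Etv5 knockdown differed from control by −0.06 (95% interval −0.23 to 0.12).

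Among the metabolic enzymes, Gamt read 113, 140.0, 135 and 158 on the Bcl6b knockdown arrays, 205, 194, 189 and 221 on the Etv5 knockdown arrays, 225, 220.4, 184 and 208 on the Pou3f1 knockdown arrays, and 208, 234, 233 and 242 on the control arrays. The Bcl6b knockdown arrays lay below all others, and the other 3 groups overlapped. The log2 difference between Bcl6b knockdown and control was −0.75 with 16 arrays and −0.67 with 15. Etv5 knockdown minus control was −0.18 and Pou3f1 knockdown minus control was −0.13, and neither passed the threshold (limma adjusted p = 0.539 and 0.683 with 16 arrays, 0.15 and 0.283 with 15). The 15-array 95% interval for Etv5 knockdown minus control, −0.35 to −0.02, nevertheless lay below 0.

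Aldh6a1 differed from the other genes in the direction of its Pou3f1 knockdown value. It read 185, 256, 253 and 274 on the Bcl6b knockdown arrays, 333, 342, 326 and 360.0 on the Etv5 knockdown arrays, 384, 407, 378 and 493 on the Pou3f1 knockdown arrays, and 327, 370.3, 382 and 366 on the control arrays. All Pou3f1 knockdown arrays lay above all Etv5 knockdown arrays, and both overlapped the control arrays. Against control, Aldh6a1 was −0.59 in Bcl6b knockdown, or −0.46 without replicate 1. It was −0.09 in Etv5 knockdown and 0.20 in Pou3f1 knockdown, with limma adjusted p = 0.904 and 0.541 with 16 arrays. Etv5 minus Pou3f1 knockdown, the only contrast whose difference used none of the arrays that chose the genes, was −0.28. This difference did not pass the threshold with 16 arrays but did with 15 (limma adjusted p = 0.407 and 0.0334). Its p-value still rests on a spread estimated from all 4 groups, which include the arrays that chose the genes.

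Abat was the dimmest of the 8 genes, at the 42.3rd percentile. The array medians were 15.8 to 17.3. Probe set 1433855_at read 16.2, 25.9, 32.9 and 29.8 on the Bcl6b knockdown arrays, 30.3, 40.5, 40.2 and 27.8 on the Etv5 knockdown arrays, 44.2, 40.9, 36.5 and 31.4 on the Pou3f1 knockdown arrays, and 46.8, 36.2, 41.2 and 53.3 on the control arrays. The Bcl6b knockdown arrays lay below all control arrays but overlapped the Etv5 and Pou3f1 knockdown arrays. The difference between Bcl6b knockdown and control was −0.77 with 16 arrays and −0.56 with 15. Etv5 knockdown minus control was −0.35 (95% interval −0.77 to 0.07). A 15-array interval of −0.65 to −0.05 for the same difference came with limma adjusted p = 0.128.

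Impact was the second brightest gene, at the 90.7th percentile, and like Cfl2 it showed nearly equal levels in the 3 other groups. Probe set 1415911_at read 1589, 1974, 2067 and 2277 on the Bcl6b knockdown arrays, 3104, 3123, 2867 and 3295 on the Etv5 knockdown arrays, 3102, 3210.2, 3025 and 3136 on the Pou3f1 knockdown arrays, and 2994, 3185, 3231 and 3074 on the control arrays. No Bcl6b knockdown array reached the lowest of the other 12. The log2 difference from control was −0.67 with 16 arrays and −0.57 with 15. The 15-array intervals for Etv5 and Pou3f1 knockdown minus control were −0.11 to 0.09 and −0.10 to 0.10.

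The genes for the endocytic protein Necap1 and the membrane protein Slc35f6 had lower means than control in all 3 knockdowns. Necap1 read 407, 547, 619.6 and 562 on the Bcl6b knockdown arrays, 684, 707, 802 and 706 on the Etv5 knockdown arrays, 703, 719, 736 and 704 on the Pou3f1 knockdown arrays, and 788, 818, 915 and 887 on the control arrays. Its Pou3f1 knockdown arrays all lay below the control arrays, and 1 Etv5 knockdown array overlapped them. Against control, Necap1 was −0.69 in Bcl6b knockdown (−0.56 without replicate 1), −0.23 in Etv5 knockdown and −0.25 in Pou3f1 knockdown. The 2 smaller differences passed the threshold with 15 arrays, with limma adjusted p = 0.0172 for Etv5 and 0.0101 for Pou3f1 knockdown, and not with 16, with 0.386 and 0.315.

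Slc35f6 read 353, 446, 441 and 497 on the Bcl6b knockdown arrays, 605, 608, 545 and 632 on the Etv5 knockdown arrays, 649.7, 566, 517 and 548 on the Pou3f1 knockdown arrays, and 679, 711, 686 and 705 on the control arrays. On probe set 1426220_at, which gave these values, Bcl6b knockdown formed a lower tier and control an upper tier. Etv5 and Pou3f1 knockdown formed a middle tier, with no array out of its tier. Against control the differences were −0.69 in Bcl6b knockdown (−0.59 without replicate 1), −0.22 in Etv5 knockdown and −0.29 in Pou3f1 knockdown. With 15 arrays limma adjusted p was 0.0398 for Etv5 and 0.00689 for Pou3f1 knockdown, and with 16 arrays it was 0.36 and 0.15.

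**Figure D2:**
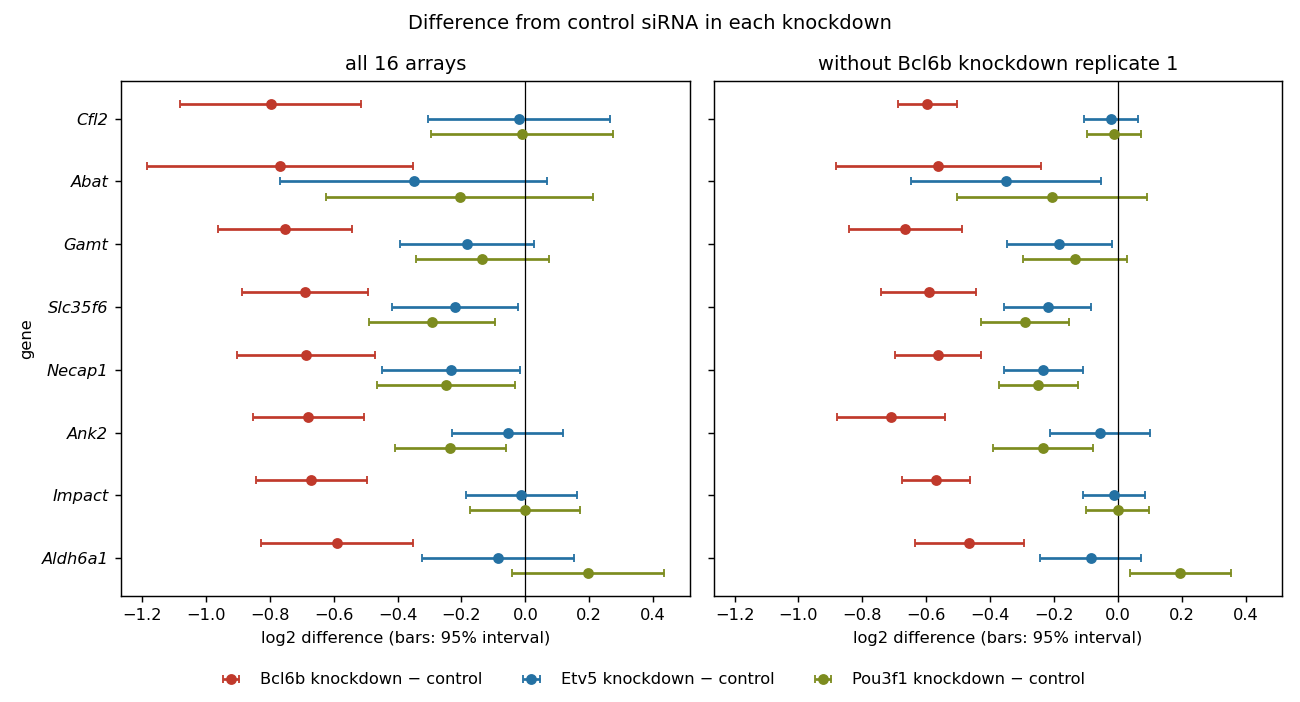
Log2 difference of each knockdown from control for the 8 genes, with 95% intervals from limma, for all 16 arrays (left) and without Bcl6b knockdown replicate 1 (right). The Bcl6b knockdown values lie between −0.80 and −0.59 on the left and between −0.71 and −0.46 on the right. Slc35f6 and Necap1 have Etv5 and Pou3f1 knockdown intervals below 0 in both panels, Ank2 has a Pou3f1 knockdown interval below 0 in both, and the Etv5 and Pou3f1 knockdown intervals of Cfl2 and Impact include 0 in both. On the right only, the Etv5 knockdown intervals of Gamt and Abat also lie below 0, and the Pou3f1 knockdown interval of Aldh6a1 lies above 0.

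Across the 8 genes the median difference between Bcl6b knockdown and control was −0.69 with 16 arrays and −0.58 with 15, while the median over all 11145 tested genes was −0.01 and −0.04. The standard errors of the 8 differences ran from 0.0815 (Ank2) to 0.196 (Abat) with 16 arrays, and from 0.0435 (Cfl2) to 0.153 (Abat) with 15, where the standard error of Cfl2 had been 0.133 with replicate 1 included. In that contrast, which chose the genes, 1.56% of tested genes were called lower with 16 arrays and 6.87% with 15. All 4 Bcl6b knockdown arrays lay below all control arrays in 8 of the 8 genes and in 9.46% of tested genes, a separation that the choice of genes favoured and from which nothing is read. In Etv5 knockdown against control, 0 of the 8 genes passed limma's threshold of adjusted p 0.05 with 16 arrays, where 0.781% of tested genes were called lower. At an unadjusted p under 0.05 it was 2 of 8, where 11% of tested genes were. With 15 arrays Slc35f6 and Necap1 were called lower, 2 of 8, against 4.94% of tested genes. In Pou3f1 knockdown against control, 0 of 8 passed with 16 arrays, where 1.22% of tested genes were called lower. At an unadjusted p under 0.05 it was 3 of 8, where 12.2% of tested genes were. With 15 arrays Slc35f6, Necap1 and Ank2 were called lower, 3 of 8, against 7.08%. The arrays were fully separated below control in 1 gene, Slc35f6, for Etv5 knockdown, where 10.4% of tested genes were, and in 3 genes for Pou3f1 knockdown, where 11.7% were. Between Etv5 and Pou3f1 knockdown 0 of 8 genes were called lower with 16 arrays, where 0.511% of tested genes were, and 1, Aldh6a1, with 15, where 2.61% were. At an unadjusted p under 0.05 with 16 arrays it was 2 of 8, Aldh6a1 lower and Ank2 higher, where 9.04% of tested genes were. Aldh6a1 was also the 1 gene of the 8 with fully separated arrays in that contrast, against 4.49% of tested genes. The 3 contrasts with control use the same control arrays, so their counts are not independent of each other or of the choice of genes. The difference between Etv5 and Pou3f1 knockdown uses no control array. It shares its arrays with 2 of those contrasts, and its p-values rest on the spread of all 4 groups.

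Bcl6b knockdown was then set directly against each other knockdown. These contrasts reuse the Bcl6b knockdown arrays that chose the genes for their low readings, so the choice favours lower calls. The counts and p-values below describe these arrays, and their excess over the background is no independent evidence. Against Etv5 knockdown, 7 of 8 genes were called lower in Bcl6b knockdown with 16 arrays and 7 with 15, where 0.906% and 2.91% of tested genes were. Against Pou3f1 knockdown it was also 7 of 8 in both fits, where 0.736% and 2.23% of tested genes were. Abat was the exception in each case.

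Impact and Cfl2 differed from both other knockdowns by nearly the same amount. For Impact the log2 difference was −0.66 against Etv5 knockdown and −0.67 against Pou3f1 knockdown (limma adjusted p = 0.00125 and 0.000166), and without replicate 1 the differences were −0.56 and −0.57 (4.65e-06 and 1.19e-06). For Cfl2 they were −0.78 and −0.79 (0.00705 and 0.00328), or −0.58 and −0.59 without replicate 1 (6.59e-07 and 3.15e-07). Ank2 was −0.62 against Etv5 knockdown and −0.44 against Pou3f1 knockdown (0.00144 and 0.00588), and Gamt was −0.57 and −0.62 (0.00711 and 0.00194). Aldh6a1 lay further below Pou3f1 knockdown, by −0.78 (0.000731), than below Etv5 knockdown, by −0.50 (0.0346). For Abat the differences were −0.42 and −0.56 (0.347 and 0.182), with 95% intervals of −0.83 to −0.00117 and −0.98 to −0.15. Without replicate 1 these differences were −0.66 and −0.48 for Ank2 against Etv5 and Pou3f1 knockdown, and −0.48 and −0.53 for Gamt. They were −0.38 and −0.66 for Aldh6a1, and −0.21 and −0.36 for Abat (limma adjusted p = 0.519 and 0.221 for Abat).

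Slc35f6 and Necap1 were lower in Bcl6b knockdown than in the knockdowns that also had less of them than control. Slc35f6 was −0.47 against Etv5 knockdown and −0.40 against Pou3f1 knockdown (limma adjusted p = 0.0178 and 0.0337), and −0.37 and −0.30 without replicate 1 (0.00397 and 0.0148). Necap1 was −0.45 and −0.44 (0.0346 and 0.0313), and −0.33 and −0.31 without replicate 1 (0.00484 and 0.00518). These calls were close to the threshold with all 16 arrays. The Slc35f6 call against Etv5 knockdown was lost without Etv5 knockdown replicate 1, 2 or 4 (limma adjusted p = 0.0541 to 0.0678). Against Pou3f1 knockdown it was lost without any of 10 arrays, namely Bcl6b knockdown replicates 2 and 3, Etv5 knockdown replicate 1, Pou3f1 knockdown replicates 1, 2 and 4, and all 4 control arrays, with 0.0503 to 0.116. The Necap1 call against Etv5 knockdown was also lost without any of 10 arrays, namely Bcl6b knockdown replicate 2, all 4 Etv5 knockdown arrays, Pou3f1 knockdown replicates 1 to 3 and control replicates 2 and 4, with 0.0512 to 0.106. Against Pou3f1 knockdown it was lost without Bcl6b knockdown replicate 2 or any Pou3f1 knockdown array, with 0.0525 to 0.0966. The Aldh6a1 call against Etv5 knockdown was lost without Bcl6b knockdown replicate 2 or 3, any Etv5 knockdown array, Pou3f1 knockdown replicate 2 or control replicate 2, 3 or 4, with 0.0503 to 0.109.

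These direct calls also rest on the spread being estimated from all 4 groups. When only the groups compared were fitted, with replicate 1 included, 0 of 8 genes passed against Etv5 knockdown (adjusted p = 0.136 to 0.443 for the 7 genes), and 1 of 8, Impact, passed against Pou3f1 knockdown. Few genes were called in those fits. Of all 11145 tested genes, 1 was called lower against Etv5 knockdown and 8 against Pou3f1 knockdown. The ranges of the arrays do not depend on that fit. In 7 of the 8 genes every Bcl6b knockdown array lay below every Etv5 knockdown array, and likewise for Pou3f1 knockdown, where 4.39% and 4.62% of tested genes had arrays so separated, again a count that the choice of genes favours. By the rule that a gene is lower in Bcl6b knockdown than in both other knockdowns, and is called lower than control in neither of them, 7 genes qualified with 16 arrays and 4 with 15. The 4 with 15 arrays were Cfl2, Gamt, Impact and Aldh6a1. Without the filter on dim genes a different set of 4 met the rule with 16 arrays, namely Cfl2, Gamt, Ank2 and Impact. A difference from control that missed the threshold in another knockdown is not shown to be absent there.

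**Figure D3:**
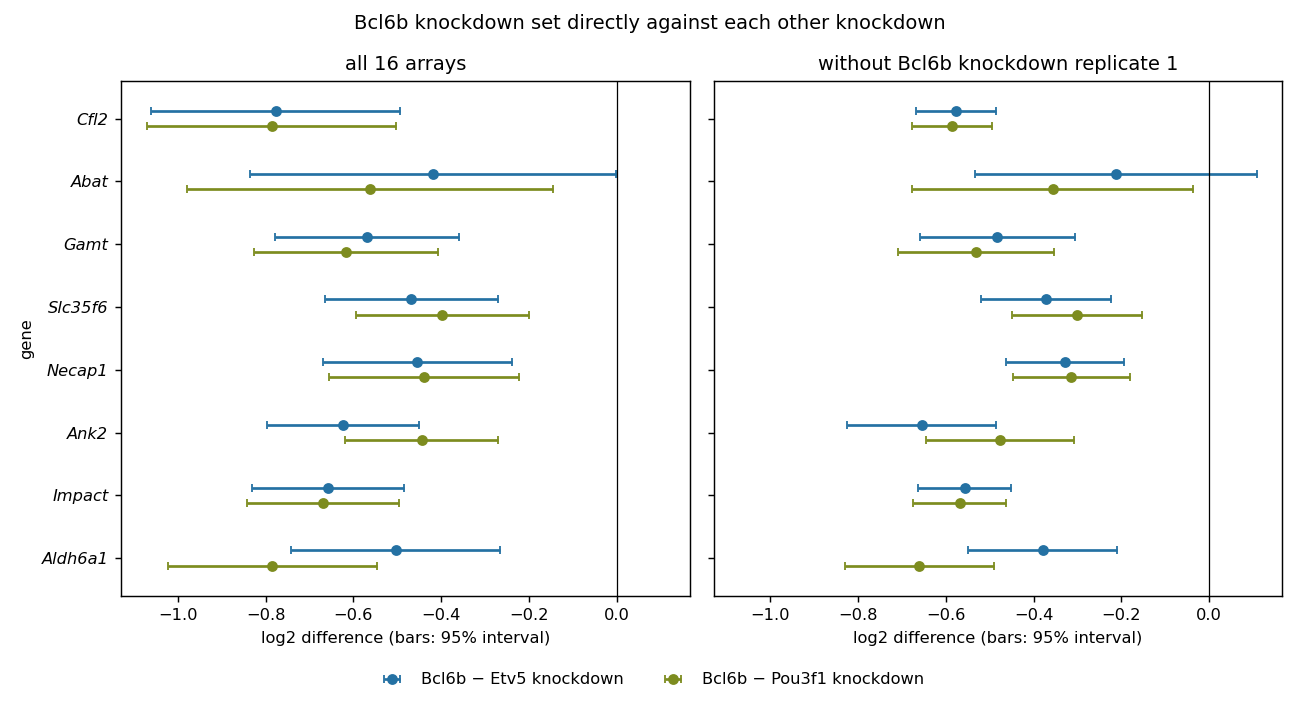
Log2 difference of Bcl6b knockdown from Etv5 knockdown and from Pou3f1 knockdown for the 8 genes, with 95% limma intervals, for all 16 arrays (left) and without Bcl6b knockdown replicate 1 (right). Every interval lies below 0 except that of Abat against Etv5 knockdown without replicate 1, and the Cfl2 intervals shorten most when replicate 1 is left out.

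The array carries 20 probe sets for the 8 genes. Of these, 13 read above the array median on all 16 arrays, and 7 read above it on none, with intensities of 3.55 to 8.23. The 7 dim ones belong to Ank2 (4), Abat, Slc35f6 and Impact (1 each), and they carry no usable level. Gamt, Necap1, Aldh6a1 and Abat have a single bright probe set, so no second reading of those genes was at hand.

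Cfl2 had 3 bright probe sets, and 2 of them were lower in Bcl6b knockdown. The second, 1418066_at, read 347, 419.8, 403 and 455 in Bcl6b knockdown, 639, 642, 588 and 632 in Etv5 knockdown, 685, 634, 606 and 714 in Pou3f1 knockdown, and 789, 648, 631 and 751 in control. Its difference from control was −0.79 with 16 arrays and −0.72 with 15. The third, 1431432_at, read 115, 64.0, 66.9 and 63.4 in Bcl6b knockdown, 61.7, 65.8, 63.9 and 63.5 in Etv5 knockdown, 63.6, 62.3, 56.6 and 66.2 in Pou3f1 knockdown, and 60.6, 70.2, 65.1 and 61.6 in control. It was not lower in Bcl6b knockdown, with a difference of 0.22 that was 0.01 without replicate 1.

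Slc35f6 and Ank2 each had a second bright probe set that was also lower in Bcl6b knockdown than in control. On it the Pou3f1 knockdown arrays overlapped the control arrays in both genes, unlike on the first. For Slc35f6, 1434048_at read 268, 300.5, 321 and 291 in Bcl6b knockdown, 397, 409, 398 and 396 in Etv5 knockdown, 391, 418, 343 and 370.5 in Pou3f1 knockdown, and 421, 444, 410.1 and 472 in control. Its difference from control was −0.56 with 16 arrays and −0.52 with 15. For Ank2, 1434264_at read 55.7, 133, 140.3 and 126 in Bcl6b knockdown, 204, 221, 222 and 223 in Etv5 knockdown, 191, 219.6, 184 and 192 in Pou3f1 knockdown, and 195, 222, 217 and 228 in control. Replicate 1 was far below its group here but highest in its group for the other Ank2 probe set, and the difference from control was −1.003 with it and −0.69 without it.

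Impact had a second probe set that went the other way. Probe set 1446750_at read 214, 167, 156 and 164 in Bcl6b knockdown, 148, 148, 131 and 108 in Etv5 knockdown, 135, 117, 112 and 109 in Pou3f1 knockdown, and 142, 141, 135 and 132 in control. All 4 Bcl6b knockdown arrays lay above the other 12 arrays, by 0.34 on log2 against control, or 0.24 without replicate 1. When the 3 Impact probe sets were averaged, the gene's difference was −0.09 from Etv5 knockdown and −0.04 from Pou3f1 knockdown, and neither passed (limma adjusted p = 0.338 and 0.575). The files do not say which transcript each probe set detects, and no level is compared between probe sets here.

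**Figure D4:**
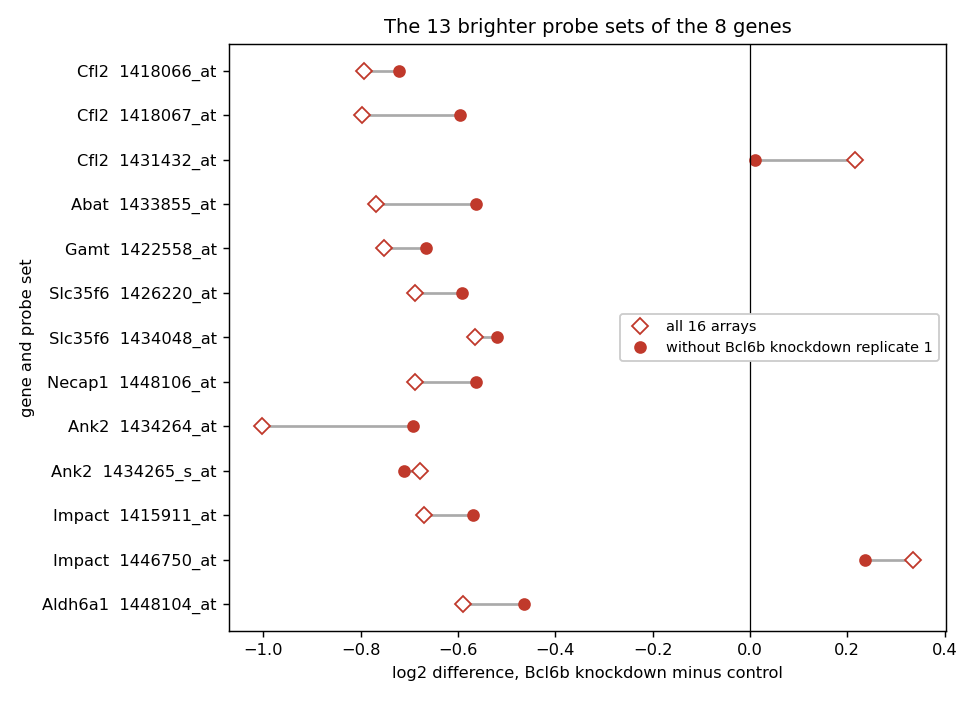
Log2 difference between Bcl6b knockdown and control for the 13 brighter probe sets of the 8 genes, with all 16 arrays (open diamonds) and without Bcl6b knockdown replicate 1 (filled points). Of the 13, 11 lie below 0 in both, between −1.003 and −0.46. Cfl2 1431432_at is at 0.22 with replicate 1 and at 0.01 without it, and Impact 1446750_at stays above 0.

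In 8 pathway lists built around the roles of the 8 genes, with those genes themselves left out, 93 genes were tested. The lists were drawn up with earlier results of these data known, around genes chosen from Bcl6b knockdown against control. Their counts in that contrast are therefore no independent evidence. Against control, 5 were called lower and 1 higher in Bcl6b knockdown with 16 arrays, where 1.56% of all tested genes were called lower and 3.21% in either direction. With 15 arrays 15 were called lower and 2 higher, where 6.87% of all tested genes were called lower and 10.9% in either direction. Of the same 93 genes, 11 were called lower and 3 higher in Pou3f1 knockdown with 15 arrays. In Etv5 knockdown it was 4 lower and 2 higher. Of all 11145 tested genes, 789 were called lower and 479 higher in Pou3f1 knockdown there, and 551 and 510 in Etv5 knockdown. With 16 arrays each of these 2 knockdowns had 1 of the 93 called higher and 0 lower. Of the genes called in Bcl6b knockdown, at most 4 per list are named.

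In creatine synthesis, transport and kinases, around Gamt, 2 further genes were tested and 0 were called in Bcl6b knockdown in either fit. In Pou3f1 knockdown 1 of the 2 was called lower with 15 arrays. In GABA metabolism, around Abat, 1 of 2 genes was called. This was Glud1, the mitochondrial glutamate dehydrogenase, at −0.27 with 16 arrays and −0.21 with 15 (limma adjusted p = 0.0101 and 0.00167). In the breakdown of branched-chain amino acids, around Aldh6a1, 0 of 25 genes were called with 16 arrays and 6 were called lower with 15, with a list median of −0.13 in both fits. Pcca, a subunit of propionyl-CoA carboxylase, was lowest of the 6 at −0.40 with 15 arrays. Bckdk, the kinase that inhibits the branched-chain ketoacid dehydrogenase, was at −0.22, Hibadh, the enzyme just before Aldh6a1 in valine breakdown, at −0.20, and methylmalonyl-CoA mutase (Mmut) also at −0.20. The list median was also below 0 in the other knockdowns, at −0.11 in Etv5 and −0.07 in Pou3f1 knockdown against control. With 15 arrays 4 of the 25 were called lower in Etv5 knockdown, Mmut among them. In Pou3f1 knockdown 4 were called lower and 1 higher, Mmut, Hibadh and Pcca among the lower.

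In the cofilin and actin list, around Cfl2, 2 of 18 genes were called lower with 16 arrays. These were Tesk2, a kinase that phosphorylates cofilin, at −0.29 (limma adjusted p = 0.0122), and cytoplasmic gamma-actin (Actg1) at −0.13 (0.0458). Destrin (Dstn), a relative of cofilin, joined them with 15 arrays at −0.12. Of the 18 genes, 3 were called lower in Pou3f1 knockdown and 0 in Etv5 knockdown with 15 arrays. Around Ank2, 1 of 9 ankyrin, spectrin and adducin genes was called lower in both fits. This was Add1 (alpha-adducin), at −0.21 with 16 arrays and −0.18 with 15. It was also called lower in Pou3f1 knockdown with 15 arrays, at −0.13.

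In clathrin and AP-2 endocytosis, around Necap1, 15 genes were tested. Sh3gl1 (endophilin A2) was lower by −0.54 with 16 arrays and −0.39 with 15. Eps15, an endocytic scaffold protein, was higher by 0.34 in Bcl6b knockdown, and was also higher by 0.55 in Etv5 knockdown and 0.51 in Pou3f1 knockdown, each called by limma. With 15 arrays Ap2m1, the AP-2 mu subunit, was called lower and the adaptor kinase Aak1 higher. Aak1 was also called higher in Etv5 knockdown, at 0.18. In the eIF2 kinase and stress response list, around Impact, 0 of 20 genes were called with 16 arrays. With 15, Sesn2 and asparagine synthetase (Asns), both known to be induced downstream of eIF2 kinases, were lower, at −0.40 and −0.14. Of the 20 genes, 2 were called lower in Pou3f1 knockdown and 0 in Etv5 knockdown with 15 arrays. Of 2 other SLC35F genes tested, 0 were called in Bcl6b knockdown in either fit, and 1 was called higher in Pou3f1 knockdown with 15 arrays.

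The cultures carried germ-cell markers and markers of other cells. Of 13 markers of undifferentiated spermatogonia, 12 read above the median on all 16 arrays, and Pax7 read above it on none. All 12 fibroblast and feeder markers did so too, and their summed intensity was 118591 to 128398 on the Bcl6b knockdown arrays, 126420 to 133500 on the Etv5, 122873 to 126603 on the Pou3f1 knockdown and 127092 to 129629 on the control arrays. Of 9 Sertoli and Leydig cell markers 5 read above the median on all arrays, and Wt1, Amh, Inha and Gata4 read above it on none. The count was 5 of 9 for macrophage and leukocyte markers and 1 of 6 for endothelial markers. Of all these markers 1, the GDNF receptor gene Ret, was called in Bcl6b knockdown with 16 arrays, at 0.35. In either direction 3.21% of all tested genes were called there. Ret was also called higher in Pou3f1 knockdown, at 0.38. With 15 arrays Thbs1, Lox and Star were called lower and Pdgfrb and Ret higher, where 10.9% of all tested genes were called. Ret and Thbs1 were called the same way in Pou3f1 knockdown with 15 arrays, and Pdgfrb in Etv5 knockdown. In such bulk RNA, fewer cells of a type and less mRNA per cell cannot be told apart, and the part of other cells in the levels of the 8 genes was not tested.

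The genes whose profile over 15 arrays lay closest to the median profile of the 8 were Ethe1, Gna11, Inpp5a, Ddah1 and Mtmr9. Likeness was the root mean square distance in log2 units, each gene being set relative to its own control mean. It was 0.0775 for Ethe1, 0.0878 for Gna11, 0.0886 for Inpp5a, 0.0970 for Ddah1 and 0.101 for Mtmr9, with a median of 0.278 over the tested genes. The 8 genes themselves lay at 0.0754 (Gamt) to 0.231 (Abat), so the nearest other genes were closer to the shared profile than some of the 8. The differences of the 5 from control in Bcl6b knockdown, −0.61 to −0.46, follow from how they were chosen.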

How the data were processed

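Gene expression was measured on 16 one-colour Affymetrix arrays, 4 per siRNA group, with groups taken from the sample titles. The values are deposited intensities on a linear scale, already summarised per probe set and normalized by the authors. Per the submitters' processing notes, Partek 6.4, GCRMA, MAS5 and Affymetrix Expression Console 1.1 were used, with no order given, so the method behind the deposited intensity values remains unknown. No depth applies to arrays: their number limits the precision. Array medians over 45037 non-control probe sets were 15.8 to 17.3.

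The 8 genes and all gene lists were chosen with earlier results of these data known. Probe sets with 1 gene symbol in the platform annotation (34945) gave 18193 genes, each read from its probe set with the highest mean. Genes above the array median on at least 4 arrays were tested (11145). Log2(intensity + 1) was fitted with limma 3.58.1 (R 4.3.3, lmFit and eBayes with trend) over all 4 groups, and p was adjusted by Benjamini-Hochberg over all tested genes, with 0.05 as the threshold. The fit was tested on simulated data. Same-numbered replicates deviated with correlations of −0.26 to 0.20, so numbers were not used as pairs. The named further genes were, per list, the 4 called genes that differed most between Bcl6b knockdown and control, and the 5 nearest profiles. Member probe sets were taken by gene symbol, and promoter windows from RefSeq.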

Additional observations from a re-analysis of the deposited data

Results flagged for a closer look

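In 13 probe sets and 4 groups, 52 groups of 4 arrays were checked for an array far from the other 3. There were 5 such arrays, and chance gives about 1 in 20. Bcl6b knockdown replicate 1 accounted for 2 of them, both in Cfl2. Its 1418067_at reading of 2122 was the lowest of its group, and the gap to the next array was 0.863 of the group's range. Its 1431432_at reading of 115 was the highest of its group, with a gap of 0.933. These opposite departures came from 1 gene on the array with the raised 3' to 5' differences, whose part in them was not tested. The other 3 were Etv5 knockdown arrays. Replicate 3 was lowest for Cfl2 1418066_at, at 588 with a gap of 0.831. Replicate 2 was highest for Slc35f6 1434048_at, at 409 with a gap of 0.867, in a group with an SD of 5.89. Replicate 1 was lowest for Ank2 1434264_at, at 204 with a gap of 0.93.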

How the results depend on the processing

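Of the single-gene results in the 5 tested contrasts, 1000 values under the alternatives kept their side of the threshold, 61 lost the call and 19 gained it. Of those called in the main fit or the alternative, 0 reversed direction. Direction was not compared for differences called in neither. Genes called against Etv5 knockdown (7 of 8) numbered 4 with all probe sets in 1 fit and 0 with only the groups compared, and those called against Pou3f1 knockdown (7) numbered 1 with only the groups compared. With only the groups compared, 1 and 8 of all tested genes were called lower in these contrasts. Against control, Etv5 knockdown (0) gave 3 with array weights and 2 with only the groups compared, and Pou3f1 knockdown (0) gave 3 and 3. Of all tested genes, 87 were called lower in Etv5 knockdown in the main fit, and 928 and 512 under these settings. In Pou3f1 knockdown these counts were 136, 1058 and 710, so the calls rose over all tested genes as well. Etv5 against Pou3f1 knockdown (0) gave 2 with array weights. Genes lower than in both other knockdowns (7) numbered 4 without the filter on dim genes, 4 with all probe sets in 1 fit and 0 with only the groups compared. Those also called in neither other knockdown against control (7) numbered 4, 4 and 0 there, and 4 with array weights. The median Bcl6b knockdown difference of −0.69 was −0.44 when all probe sets of a gene were averaged, which includes dim and opposite ones. Pathway genes called against control in Bcl6b knockdown (6) numbered 12 with median centring, 25 with array weights and 0 with only the groups compared. In Etv5 knockdown (1) they numbered 15 with array weights and 6 with only the groups compared, and in Pou3f1 knockdown (1) 2 with quantile normalization, 0 with averaged probe sets, 19 with array weights and 11 with only the groups compared. Leaving out 1 array at a time gave 4 to 7 genes against Etv5 knockdown, 5 to 7 against Pou3f1 knockdown, 4 to 7 against both, 4 to 7 against both and in neither other knockdown against control, 0 to 2 for Etv5 knockdown against control, 0 to 3 for Pou3f1 knockdown against control and 0 to 1 between these knockdowns. The median ranged over −0.75 to −0.58, and the pathway counts over 3 to 17, 1 to 6 and 1 to 14 in Bcl6b, Etv5 and Pou3f1 knockdown. The cause of these changes was not tested. With the replicate block the Slc35f6 call against Pou3f1 knockdown was lost (limma adjusted p = 0.0611), which left 6 genes, and no other call of the 8 genes changed. Median centring of the arrays gave 126 genes called higher and 617 lower of all tested in Bcl6b knockdown against control, against 184 and 174. Array weights gave 739 higher and 1343 lower there, and only the groups compared gave 35 and 27. The pathway counts are to be read beside these totals.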
